A study of Drosophila melanogaster with 12 samples.

Results

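The nuclear genes for subunits of respiratory complexes III and IV and of ATP synthase were followed in larval carcass of Drosophila melanogaster. Members were all genes whose FlyBase symbol starts with UQCR- (complex III), COX in capitals (complex IV) or ATPsyn (ATP synthase), 40 of the 17492 genes in the deposited tables. Complex III had 9 members, complex IV 16 and ATP synthase 15. Of the 40, 15 carry the symbol of another subunit plus the ending L or L2 and are called paralogs here, and the other 25 are called the main subunits. The symbols COX10, COX11 and the like, which name assembly factors, are written Cox in the fly and were counted apart.

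Total RNA was taken from stationary larvae of the third instar, whose internal organs had been dissected away so that body wall with its muscle and epidermis remains. Wildtype larvae (WT) are listed under the strain w1118. Trans-heterozygotes for mutations of Nxt1, a small cofactor of the nuclear mRNA export receptor, are listed under the strain yw, and the sources used here do not name the alleles. Genotype and strain therefore cannot be told apart in any comparison below. There were 12 libraries in 4 groups of 3, made after incubation with water (mock) or with RNase R, which degrades linear RNA. The titles carry only the letters M and R, taken here for mock and RNase R. The 3 mock libraries of each genotype carry the mRNA and intronic (pre-mRNA) values, and the RNase R libraries carry only lists of circular RNAs. The labels do not say whether the 3 replicates are separate pools of larvae, so p-values measure the spread between these libraries.

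Complex III passes electrons from ubiquinol to cytochrome c, and complex IV passes them on to oxygen. Both pump protons across the inner mitochondrial membrane, and ATP synthase lets the protons flow back through its membrane ring to drive ATP formation in its catalytic head. Each complex joins many subunits encoded in the nucleus with a few encoded by the mitochondrial genome, and larval body wall muscle is rich in mitochondria. In Drosophila many of these subunits have a second, duplicated gene, and such duplicates are often expressed mainly in testis.

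Between 30193498 and 32305641 reads fell on mRNA in a WT mock library, against 19830526 in Nxt1 replicate 1, 32840376 in replicate 2 and 32868851 in replicate 3. Intronic reads were fewer, from 664555 in Nxt1 replicate 1 to 1455766 in WT replicate 2. Nxt1 itself was lower in the mutant, at 10.7, 8.31 and 9.91 FPKM (fragments per kilobase, scaled for library depth) in WT against 6.03, 6.57 and 5.72 FPKM (0.670-fold, limma adjusted p = 0.0164). Of 12 muscle markers 6 rose and 0 fell, of 7 epidermis and cuticle markers 4 rose and 0 fell, and of 7 fat body markers 4 rose and 0 fell. Markers of organs that dissection should remove were also present: the summed reads over the library factor of 7 salivary gland genes were 635 to 3275 in WT and 5214 to 14393 in Nxt1, and 5 of the 6 tested rose. The remaining one, ng1, went the other way without being called (limma adjusted p = 0.119). It had 213, 43 and 448 unscaled reads in WT and 1, 38 and 13 in Nxt1. Midgut markers summed to 140 to 1754 in WT and 491 to 3921 in Nxt1, with 1 of 4 tested higher. Of 5 hemocyte markers 2 rose and 1 fell, with sums of 16100 to 22867 in WT and 29476 to 42918 in Nxt1. PPO1 (4.67-fold) and PPO2 (4.42-fold) rose, NimC1 fell (0.472-fold), and Hml and Pxn were not called. In bulk tissue, more cells of a type and more RNA per cell cannot be told apart.

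Main subunit mRNAs were broadly higher in the Nxt1 carcass. Of the 40 members, 26 reached a mean of 1 FPKM and were tested, namely all 25 main subunits and 1 paralog, and 18 of them rose while 0 fell (limma, Benjamini-Hochberg adjusted p under 0.05 over all 8923 genes tested). Among all genes tested 12.5% rose and 9.1% fell. In 22 of the 26 the 3 Nxt1 libraries did not overlap the 3 WT libraries and lay above them, as in 24.2% of all genes tested. The median fold of the 26 was 1.87 (0.90 on the log2 scale, against 0.01 for all genes), with a range from 0.955 to 2.49. Fold changes here are Nxt1 over WT on log2(FPKM + 1).

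The count of 18 depends on single libraries, and so does the count over all genes. In all 25 main subunits WT replicate 3 was the highest and WT replicate 2 the lowest of the WT libraries, and Nxt1 replicate 2 was the highest of the Nxt1 libraries. Without WT replicate 3 the count was 24, and without WT replicate 2 it was 13. It was 4 without WT replicate 1, 7 without Nxt1 replicate 1, 4 without Nxt1 replicate 2 and 8 without Nxt1 replicate 3. Over all 8923 genes tested, 1439 were called higher without WT replicate 3, 856 without WT replicate 2 and 480 without WT replicate 1. The number was 552 without Nxt1 replicate 1, 453 without Nxt1 replicate 2 and 495 without Nxt1 replicate 3, against 1117 with all libraries. COX4, COX5A, COX6B and ATPsyndelta were called in each of these 6 fits, and the other 14 in 1 to 4 of them. With all libraries scaled to equal totals of reads, the median of all genes shifted to -0.32, 10 members rose and 0 fell, and the calls over all genes split into 528 higher and 4370 lower genes in place of 1117 and 812. Relative to that shifted median the members stood at 0.85, against 0.89 before.

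**Figure D1:**
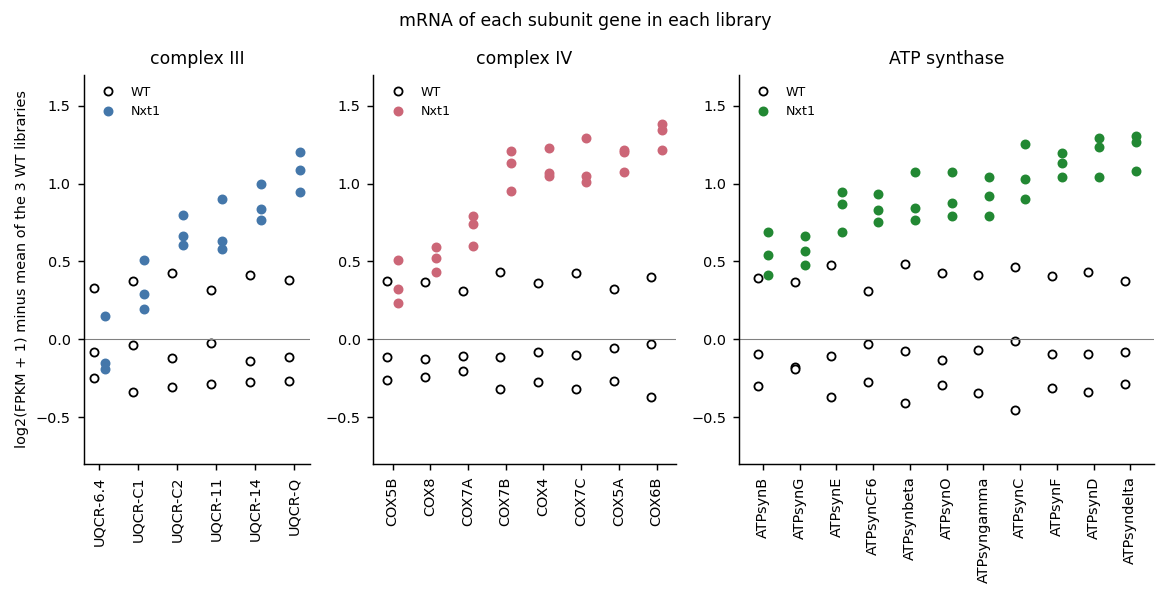
mRNA level of each of the 25 main subunits, as log2(FPKM + 1) minus the mean of the 3 WT libraries of that gene. Open circles are WT libraries and filled circles Nxt1 libraries. Except in UQCR-6.4, UQCR-C1 and COX5B, the Nxt1 circles lie above all WT circles of the gene.

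Among complex III subunits the median fold was 1.62, and 3 of 6 tested members rose. UQCR-Q, the small subunit next to cytochrome b that corresponds to yeast Qcr8, was at 27.5, 24.6 and 39.1 FPKM in WT and at 64.4, 70.0 and 58.4 FPKM in Nxt1. The groups were well apart, a rise of 1.08 ± 0.18 (SE) on the log2 scale (2.11-fold, limma adjusted p = 0.0116). UQCR-14, the counterpart of human UQCRB, was at 56.3, 51.2 and 83.0 FPKM in WT and at 112, 125 and 106 FPKM in Nxt1. It rose 1.82-fold (log2 0.87 ± 0.19, limma adjusted p = 0.0251), with every Nxt1 library above the highest WT library. UQCR-11, the acidic hinge protein that helps cytochrome c1 meet cytochrome c, was at 16.0, 13.2 and 20.6 FPKM in WT and at 25.9, 31.3 and 25.0 FPKM in Nxt1. Its rise was 1.63-fold (log2 0.70 ± 0.17, limma adjusted p = 0.0356), again without overlap.

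Both core subunits of complex III missed the threshold. UQCR-C2 was 1.61-fold higher without overlap of the groups (limma adjusted p = 0.0516). UQCR-C1, the other core subunit, was at 50.6, 40.8 and 67.6 FPKM in WT and at 63.8, 74.4 and 59.6 FPKM in Nxt1, a fold of 1.26 (log2 0.33 ± 0.19, limma adjusted p = 0.257) that was -0.03 on the log2 scale with equal totals, or 0.29 above the shifted median of all genes. Its groups overlapped, since WT replicate 3 was above 2 of the Nxt1 libraries. UQCR-6.4, the smallest subunit, had the lowest fold of the 26 tested members. Its level was 8.45, 7.41 and 11.5 FPKM in WT and 7.97, 10.1 and 7.74 FPKM in Nxt1 (0.955-fold, log2 -0.07 ± 0.17, limma adjusted p = 0.810), and the sign turned to 0.10 without WT replicate 3. The number of complex III members called was 0 without WT replicate 1 or Nxt1 replicate 2, 1 without WT replicate 2, Nxt1 replicate 1 or Nxt1 replicate 3, 5 without WT replicate 3, and 1 with equal totals.

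Complex IV had the highest median fold of the 3 complexes, 2.15, and 6 of its 8 tested members rose. COX6B, the subunit that links the monomers on the intermembrane side, was at 217, 171 and 293 FPKM in WT and at 562, 579 and 516 FPKM in Nxt1. Even the lowest Nxt1 library stood well above the highest WT library, and the rise of 2.49-fold was the largest of the 26 tested members (log2 1.31 ± 0.20, limma adjusted p = 0.00888). COX5A, which faces the mitochondrial matrix, went from 291, 252 and 379 FPKM in WT to 699, 704 and 640 FPKM in Nxt1 (2.24-fold, log2 1.16 ± 0.16, limma adjusted p = 0.00694). COX7C, a small membrane subunit, was at 14.4, 12.3 and 21.2 FPKM in WT and at 32.3, 39.5 and 33.3 FPKM in Nxt1 (2.17-fold, log2 1.12 ± 0.20, limma adjusted p = 0.0150). Neither gene's groups overlapped.

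COX4, the largest nuclear subunit, rose 2.16-fold (limma adjusted p = 0.00932), the membrane subunit COX7B 2.14-fold (limma adjusted p = 0.0163) and COX7A, at the dimer interface, 1.64-fold (limma adjusted p = 0.0228). COX8, another membrane subunit, was at 21.3, 19.5 and 30.3 FPKM in WT and at 33.9, 35.6 and 31.8 FPKM in Nxt1. Its groups did not overlap but WT replicate 3 came close to the Nxt1 libraries, and the fold of 1.43 missed the threshold (log2 0.52 ± 0.16, limma adjusted p = 0.0732). COX5B, the zinc-binding subunit, was at 25.4, 22.9 and 36.2 FPKM in WT and at 32.6, 39.7 and 34.8 FPKM in Nxt1. Here the groups overlapped, and the log2 fold of 0.35 ± 0.18 (limma adjusted p = 0.204) became -0.01 with equal totals, or 0.32 above the shifted median of all genes. Complex IV kept 3 to 6 calls when WT replicate 1, WT replicate 2 or an Nxt1 library was left out, and had 8 without WT replicate 3.

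Of the 12 tested ATP synthase members 9 rose, with a median fold of 1.89. In the catalytic head and its rotor, ATPsyndelta, a subunit of the central stalk, was at 57.3, 49.6 and 79.1 FPKM in WT and at 148, 152 and 130 FPKM in Nxt1. It had the largest rise of this complex, 2.33-fold (log2 1.22 ± 0.18, limma adjusted p = 0.00847). ATPsyngamma, the rotating shaft, rose 1.89-fold (limma adjusted p = 0.0245) and ATPsynbeta, which holds the catalytic sites, 1.86-fold (limma adjusted p = 0.0437).

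In the peripheral stalk, which keeps the head from turning, ATPsynD was at 43.6, 36.7 and 63.1 FPKM in WT and at 111, 116 and 96.9 FPKM in Nxt1. This was a rise of 2.28-fold without overlap (log2 1.19 ± 0.20, limma adjusted p = 0.0128). ATPsynO, the stalk's cap, rose 1.88-fold (limma adjusted p = 0.0255) and ATPsynCF6 1.79-fold (limma adjusted p = 0.0166). ATPsynB, the stalk's membrane anchor, was at 125, 108 and 175 FPKM in WT and at 194, 215 and 177 FPKM in Nxt1. The lowest Nxt1 library barely passed WT replicate 3, and the fold of 1.46 missed the threshold (log2 0.55 ± 0.19, limma adjusted p = 0.0893).

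In the membrane part, ATPsynF was at 101, 86.4 and 143 FPKM in WT and at 238, 248 and 223 FPKM in Nxt1, a rise of 2.18-fold (log2 1.12 ± 0.19, limma adjusted p = 0.0121). ATPsynC, whose product forms the proton-carrying ring, rose 2.09-fold (limma adjusted p = 0.0288), and ATPsynE, which helps pair the enzymes, 1.79-fold (limma adjusted p = 0.0425). ATPsynG, another subunit of the pairing interface, stood at 6.37, 6.32 and 9.78 FPKM in WT and at 11.4, 12.2 and 10.6 FPKM in Nxt1. The groups did not overlap, and the fold of 1.48 missed the threshold (log2 0.57 ± 0.17, limma adjusted p = 0.0568). The count of 9 fell to 1 without WT replicate 1 or Nxt1 replicate 2, to 2 without Nxt1 replicate 1, to 3 without Nxt1 replicate 3 and to 4 with equal totals. It was 6 without WT replicate 2 and 11 without WT replicate 3. The differences in fold between the complexes were not tested.

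Of the 26 tested members 12 overlap another gene in the Release 6 annotation, 10 of the 18 that rose among them, such as COX6B with CG18809, COX5A with glo and ATPsyndelta with CG2962. Overlap here is of whole gene spans, introns and either strand included, and its share among all genes tested was not counted. No source used here says whether the authors counted by strand, so how many reads of such neighbours enter a member's value is not known.

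Other genes linked to the same complexes, subunits as well as assembly factors and the carrier cytochrome c, were counted from a list beside the members. In complex III, RFeSP, the Rieske iron-sulphur protein, rose 1.90-fold (limma adjusted p = 0.0248), 1 of 4 genes tested. Cytochrome c1 (Cyt-c1) was 1.64-fold higher (limma adjusted p = 0.0596) and the electron carrier Cyt-c-p 1.81-fold (limma adjusted p = 0.118). The small subunit ox was 1.26-fold higher with overlapping groups (limma adjusted p = 0.314). In complex IV 3 of 10 tested genes rose. They were the subunits levy (1.98-fold) and cype (1.93-fold), the counterparts of human COX6A and COX6C, and the assembly factor and copper chaperone Cox17 (1.51-fold). The other 7 assembly factors tested, Scox, Surf1, Ccdc56, Coa7, Coa8, Cox10 and Cox11, were not called. Cox15, Cox18, Cox19 and Cox20, also on the list, matched no gene symbol in the data. The median of all 10 tested genes was 0.17 on the log2 scale. With equal totals that median was -0.11, with 2 genes higher and 2 lower. Both remaining head subunits of ATP synthase rose, the alpha subunit blw 1.94-fold and the epsilon subunit sun 2.22-fold, 1 of them with equal totals. RFeSP was not called with equal totals.

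The subunits encoded by the mitochondrial genome were higher as well, in 4 of 5 genes tested. mt:ATPase6, the proton channel next to the ring, was at 340, 334 and 369 FPKM in WT and at 744, 1041 and 1028 FPKM in Nxt1 (2.66-fold, limma adjusted p = 0.00359). Cytochrome b (mt:Cyt-b) rose 1.86-fold, mt:CoIII 1.67-fold and mt:CoI 1.62-fold, while mt:CoII was 1.13-fold higher and not called (limma adjusted p = 0.452). mt:ATPase8 stayed below the filter. In each called gene all 3 Nxt1 libraries were above all WT libraries, and Nxt1 replicate 1 was the lowest of the 3. With equal totals 3 of the 5 rose.

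**Figure D2:**
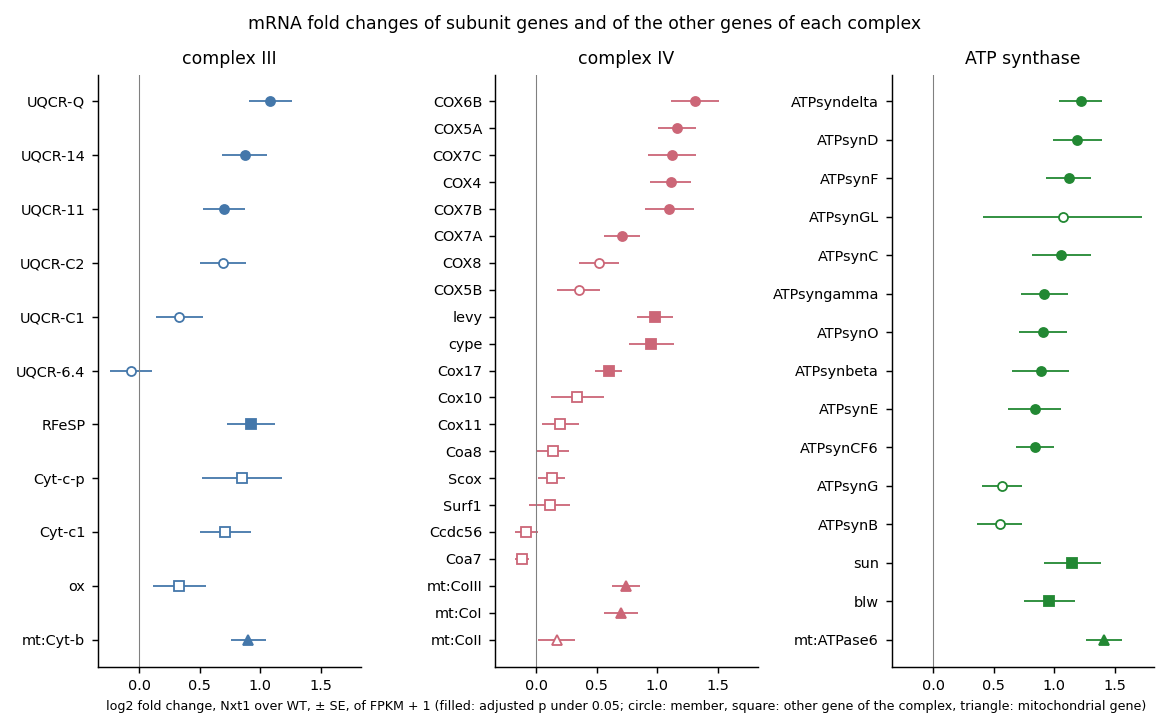
Log2 fold change of mRNA, Nxt1 over WT, with its standard error, for the tested members (circles), other listed nuclear genes (squares) and the mitochondrial genes (triangles). The squares include assembly factors of complex IV and the electron carrier Cyt-c-p as well as subunits. Filled symbols have an adjusted p under 0.05. COX6B at 1.31 and mt:ATPase6 at 1.41 lie farthest to the right, and UQCR-6.4 at -0.07 is the only member below 0.

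Among carriers that serve ATP synthase, 2 of 5 genes rose, the phosphate carrier Mpcp1 (3.52-fold, limma adjusted p = 0.0429) and the outer membrane channel porin (1.80-fold, limma adjusted p = 0.0162). The ADP/ATP carriers sesB (1.16-fold, limma adjusted p = 0.503) and Ant2 (1.18-fold, limma adjusted p = 0.383) and the carrier Mpcp2 (0.934-fold, limma adjusted p = 0.603) were not called. With equal totals 2 of the 5 rose and 1 fell. Of 6 regulators of mitochondrial genes 0 rose and 2 fell: srl, the fly PGC-1 counterpart (0.698-fold, limma adjusted p = 0.0237), and bsf, an RNA-binding protein of mitochondria (0.738-fold, limma adjusted p = 0.0414). With equal totals all 6 were called lower, as were 4370 of all 8927 genes tested. The complex I subunits, 40 genes with the prefix ND-, moved the same way: 23 of 34 tested rose and 0 fell, with a median of 0.64 on the log2 scale, and 9 rose with equal totals.

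Within each genotype the members and the muscle markers moved together from library to library. The median member stood at -0.09, -0.29 and 0.39 in WT replicates 1, 2 and 3 and at 0.87, 1.02 and 0.77 in Nxt1 replicates 1, 2 and 3, as log2(FPKM + 1) minus the WT mean. The median of the 12 muscle markers stood at -0.04, -0.47 and 0.55 in WT and at 1.06, 1.12 and 0.87 in Nxt1. WT replicate 3 was the highest WT library and Nxt1 replicate 2 the highest Nxt1 library in both. Summed over the library factor, muscle marker reads were 801508 to 1831776 in WT and 2132973 to 2798656 in Nxt1. Of the 12 markers 6 rose, namely Act57B, Mlc1, Tm2, Prm, TpnC47D and TpnC73F, and 3 rose with equal totals. Act87E had the lowest fold of the 12 and was flat (1.03-fold, limma adjusted p = 0.89). TpnC73F did not follow the library order of the median, at 1547, 1410 and 1547 FPKM in Nxt1 replicates 1, 2 and 3. Other tissues were higher by as much: the epidermis and cuticle median stood at -0.19, 0.31 and 0.28 in WT and at 1.02, 1.15 and 0.79 in Nxt1, with the Nxt1 libraries in the order of the members and the WT libraries not. The fat body median stood at -0.07, 0.12 and 0.04 in WT and at 1.34, 1.05 and 1.54 in Nxt1, in another order. The WT order of the members was not particular to muscle. The hemocyte median stood at 0.10, -0.35 and 0.25 in WT and at 0.57, 0.34 and 0.18 in Nxt1. That of the 6 regulators stood at -0.02, -0.13 and 0.15 in WT and at -0.28, -0.20 and -0.12 in Nxt1. Salivary gland and midgut medians were highest in WT replicate 2. How many of all genes share the members' order was not counted.

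Set against the muscle median of the same library, the members were at -0.05, 0.18 and -0.17 in WT and at -0.19, -0.10 and -0.11 in Nxt1. The ranges of the 2 genotypes overlap. For complex IV these values were -0.06, 0.20 and -0.18 in WT and -0.02, 0.09 and 0.12 in Nxt1, and for ATP synthase -0.05, 0.16 and -0.14 against -0.17, -0.06 and -0.10. Complex III was lower relative to muscle in all 3 Nxt1 libraries, at -0.42, -0.27 and -0.28, than in the WT libraries, at -0.06, 0.19 and -0.18. That median covers 6 UQCR- genes and leaves out RFeSP and Cyt-c1. Complex I was below muscle in Nxt1 as well: its own median stood at -0.08, -0.18 and 0.29 in WT and at 0.62, 0.80 and 0.53 in Nxt1. The part of muscle, epidermis or fat body content in the members' rise was not tested.

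**Figure D3:**
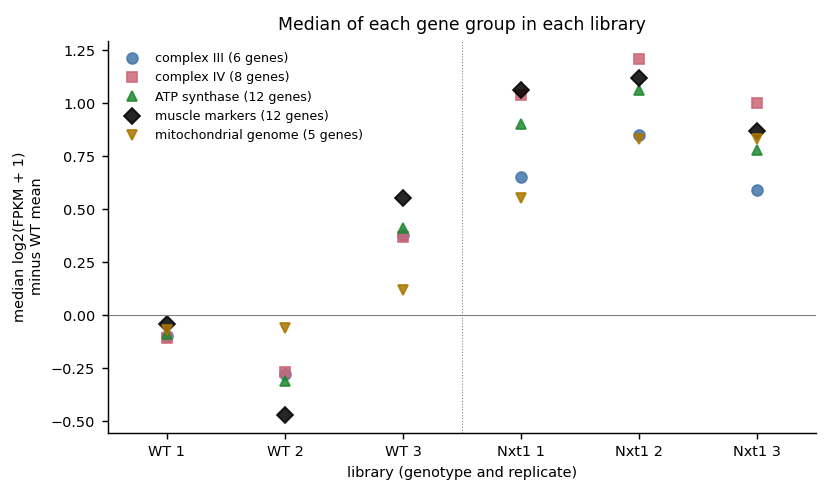
Median of log2(FPKM + 1) minus the WT mean in each mock library, for the tested genes of each complex, the muscle markers and the mitochondrial genome. In WT the members follow the muscle markers, lowest in replicate 2 and highest in replicate 3, and in Nxt1 the median member is at 0.77 to 1.02.

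Levels between genes can be compared only per length. The lengths behind the deposited FPKM belong to other genes, so the FPKM above compare libraries within a gene only. With each gene's own counted length put back, which was possible for 21 main subunits, the most abundant mRNA in WT was ATPsynC at 450 ± 142 FPKM (SD, n = 3), followed by ATPsynbeta at 332 ± 106 and COX8 at 327 ± 79.7. COX7A (203 ± 41.2), COX5A (200 ± 42.4) and COX6B (185 ± 50.3) came next. At the low end stood UQCR-C2 at 60.8 ± 16.7, UQCR-6.4 at 41.1 ± 9.61 and ATPsyndelta at 18.1 ± 4.45. ATPsyndelta also has the longest counted length of the 21, 3817 bases, and COX8 the shortest, 171 bases. The mean ± SD of neighbours in this order overlapped in all but 2 of 20 pairs, COX8 over COX7A and UQCR-6.4 over ATPsyndelta. The high place of COX8 rests on its short length, since its WT reads were 1872, 1675 and 2520, against 4299, 3909 and 5473 for COX7A. Likewise the last place of ATPsyndelta rests on its long counted length. Its WT reads were 2373, 1999 and 3095, against 794, 679 and 1024 for UQCR-6.4.

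In Nxt1 the same 3 genes led, ATPsynC at 913 ± 113 FPKM per own length, ATPsynbeta at 598 ± 68.5 and COX8 at 466 ± 26.8. COX6B at 450 ± 26.7 and COX5A at 443 ± 23.1 lay within the spread of COX8, whose place again rests on its short counted length. At the low end the last places were exchanged, with ATPsyndelta at 41.7 ± 3.42 and UQCR-6.4 at 38.6 ± 5.75, a difference within the spread.

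Intronic reads gave little on most members. Among the pre-mRNA values 18 members were listed at 0 in every library, 9 were infinite or undefined and 3 fell below the filter, which left 10 for the test. Of these 1 fell and 0 rose, where 0.643% of all 3576 genes tested fell and 0.839% rose. The gene that fell was ATPsynC. Apart from it only UQCR-11 had more than 24 intronic reads in a library, namely 64, 54 and 63 in WT and 29, 54 and 44 in Nxt1. Scaled by the authors these were 62.9, 53.9 and 73.4 FPKM against 68.1, 65.8 and 53.2 FPKM, a log2 fold of -0.02 ± 0.19 (limma adjusted p = 0.973). COX5B had 23, 24 and 21 intronic reads in WT and 6, 15 and 19 in Nxt1 (0.766-fold on FPKM, limma adjusted p = 0.397).

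The other 7 had 12 reads or fewer in each library. ATPsynD had 7, 8 and 5 intronic reads in WT and 6, 5 and 12 in Nxt1, and ATPsynO had 5, 4 and 7 against 4, 5 and 5. UQCR-Q had 7, 5 and 4 reads in WT against 2, 7 and 4 in Nxt1, and COX7B had 3, 3 and 11 against 2, 8 and 1. The paralog COX7AL2 had 3, 7 and 3 reads in WT against 3, 5 and 7 in Nxt1. UQCR-C1 had 2, 1 and 3 reads against 1, 5 and 0, and ATPsynF 0, 0 and 4 against 0, 0 and 1. None of these groups stood apart. Changes in these introns were not detectable at this depth.

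ATPsynC had by far the most intronic reads of the members, and a second gene shares its place. RNaseP:RNA, the RNA component of the enzyme that trims the front of transfer RNAs, lies within the span of ATPsynC in the Release 6 annotation. As ATPsynC pre-mRNA the WT libraries listed 23526, 20857 and 23753 reads, and the Nxt1 libraries 4706, 9849 and 10756. As RNaseP:RNA, in the mRNA table, the WT libraries listed 23269, 20628 and 23496 reads, and the Nxt1 libraries 4646, 9704 and 10646. The numbers of RNaseP:RNA reads thus equalled 98.5% to 99.0% of those listed as ATPsynC pre-mRNA in each of the 6 libraries.

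As deposited, ATPsynC pre-mRNA fell to 0.506-fold (log2 -0.98 ± 0.14, limma adjusted p = 0.0370), while ATPsynC mRNA was at 1465, 1077 and 2036 FPKM in WT and at 3018, 3515 and 2759 FPKM in Nxt1 and rose 2.09-fold. RNaseP:RNA itself fell to 0.511-fold, from 767, 697 and 819 FPKM in WT to 321, 411 and 441 FPKM in Nxt1 (log2 -0.97 ± 0.14, limma adjusted p = 0.00835). Both falls are of the same size, and the fall listed for ATPsynC pre-mRNA cannot be told apart from that of RNaseP:RNA. Left after subtraction were 257, 229 and 257 reads in WT against 60, 145 and 110 in Nxt1. Over the pre-mRNA library factor this was 205 ± 28.5 in WT and 118 ± 18.4 in Nxt1 (SD, n = 3 each), a ratio of 0.578 whose exact 2-sided permutation p of 0.1 is the smallest that 3 against 3 allows. The remainder has the direction of RNaseP:RNA as well, and which gene it comes from was not tested.

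**Figure D4:**
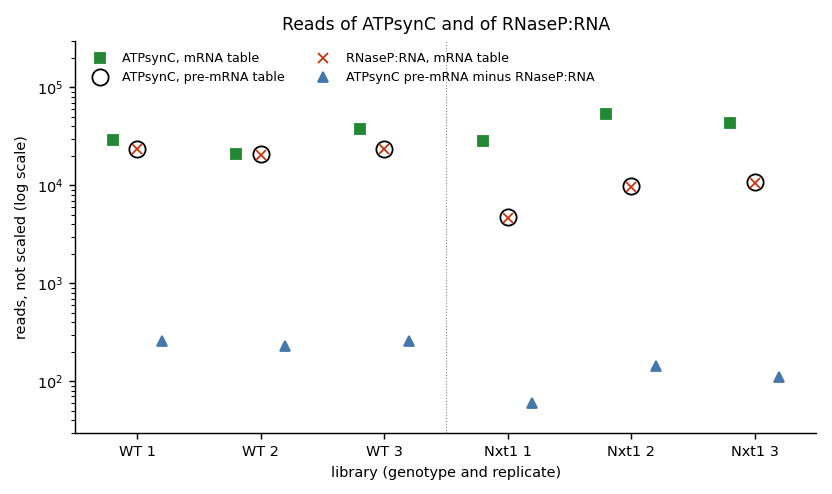
Reads, not scaled for depth, of ATPsynC in the mRNA table (squares), ATPsynC in the pre-mRNA table (open circles), RNaseP:RNA in the mRNA table (crosses) and the difference of the latter pair (triangles), by mock library on a log axis. Each cross lies inside its circle, from 20628 to 23496 reads in WT and from 4646 to 10646 in Nxt1, and 60 to 257 reads remain as the difference.

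The ratio of mRNA to pre-mRNA could be tested in 9 members, and it rose in ATPsynC only, by 2.04 ± 0.18 on the log2 scale (limma adjusted p = 0.0261), against 0.193% of 3103 genes with a rise and 0.0967% with a fall. The mRNA and pre-mRNA tables were scaled separately by the authors, so the ratio has no absolute level. For the reason just given the ATPsynC ratio compares ATPsynC mRNA with a value that RNaseP:RNA reads account for in number. The call for ATPsynC pre-mRNA was lost without WT replicate 1 (limma adjusted p = 0.158), WT replicate 2 (0.0940), Nxt1 replicate 1 (0.145), Nxt1 replicate 2 (0.157) or Nxt1 replicate 3 (0.155), and held without WT replicate 3 (0.0446). The ratio call was lost without WT replicate 1 (0.0797), WT replicate 2 (0.0718), Nxt1 replicate 1 (0.0801) or Nxt1 replicate 2 (0.0786). UQCR-11 had a log2 ratio change of 0.72 ± 0.14 (limma adjusted p = 0.101) and COX7B one of 1.21 ± 0.37 (limma adjusted p = 0.196).

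The 15 paralogs were nearly silent next to their partners. UQCR-14L and UQCR-6.4L had no reads in any mock library, and the other 13 had at most 38 reads in a library, while their partners had 501 to 40066. COX5BL had 9, 18 and 17 reads in WT against 4, 10 and 5 in Nxt1, and UQCR-11L had 21, 12 and 10 against 3, 10 and 6. COX7CL had 8, 8 and 13 reads in WT, against 7, 13 and 11. These 3 had reads in every library and all 3 overlap another gene (Trmt6, Acsl and sel). COX7AL and COX7AL2 also had reads in every library, and no overlapping gene is listed for them. In all, 7 of the 15 paralogs overlap another gene.

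ATPsynbetaL, the copy of the catalytic subunit, had the most reads of any paralog, 38 in Nxt1 replicate 1, against 11 and 0 in the other Nxt1 libraries and 10, 3 and 0 in WT. ATPsynGL had 7, 2 and 0 reads in Nxt1 and 0, 1 and 0 in WT. ATPsynCF6L had 6, 3 and 0 reads in Nxt1 against 0, 2 and 0 in WT. So these paralogs were highest in 1 Nxt1 library and at 0 in another. ATPsynepsilonL had 6, 3 and 2 reads in Nxt1 and 2, 0 and 2 in WT, and COX4L had 5, 2 and 0 against 2, 1 and 1. COX7AL2 had 4, 7 and 2 reads in Nxt1 and 2, 8 and 2 in WT. The last 4 had no more than 2 reads in any library. COX7AL had 1, 1 and 1 reads in Nxt1 and 2, 1 and 1 in WT, COX6AL 0, 0 and 0 against 0, 2 and 1, COX6AL2 2, 0 and 0 against 0, 1 and 0, and COX6CL 1, 1 and 0 against 0, 2 and 0.

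ATPsynGL was the 1 paralog past the filter, since a short length of another gene had been used for its FPKM. It was listed at 0, 0.388 and 0 FPKM in WT and at 5.55, 0.973 and 0 FPKM in Nxt1 (limma adjusted p = 0.284), which rests on Nxt1 replicate 1. Without ATPsynGL the count of 18 is the same.

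Nxt1 replicate 1 also held the most reads over the library factor for 8 of the 13 paralogs with reads, COX7AL and COX6CL on 1 read each, and the most unscaled reads for 6 of the 13. Nxt1 replicate 3 had none for 7 of the 13. Testis markers showed that pattern in part: 9 of 13 were highest in Nxt1 replicate 1 (8 in unscaled reads) and 7 of 13 were at 0 in Nxt1 replicate 3. betaTub85D, the testis tubulin, had 60, 12 and 0 reads in Nxt1 and 1, 16 and 6 in WT. The meiotic arrest gene can had 23, 5 and 0 reads in Nxt1 and 0, 1 and 1 in WT. Mst87F, twe, bol and fzo were not highest in Nxt1 replicate 1. In Nxt1 Mst87F had 15, 38 and 25 reads and fzo 149, 421 and 405. How many of all genes share either pattern was not counted. Summed over the library factor the 13 testis markers were at 2139 to 2337 in WT and 1737 to 1958 in Nxt1, most of it bol, which fell (0.719-fold, limma adjusted p = 0.0106). The part of testis RNA in the paralog reads was not tested.

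**Figure D5:**
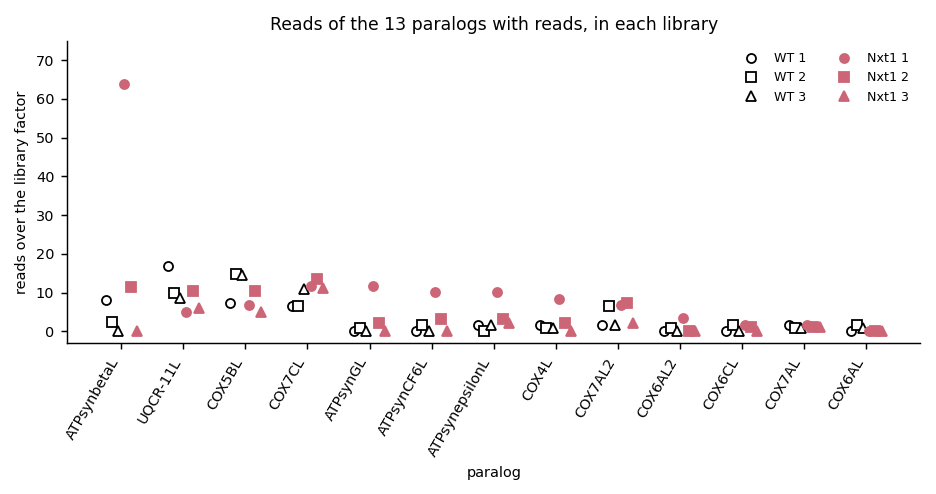
Reads over the library factor of the 13 paralogs with reads, in each mock library (open symbols WT, filled symbols Nxt1, one shape for each replicate). ATPsynbetaL in Nxt1 replicate 1, from 38 reads, stands far above the rest. ATPsynGL, ATPsynCF6L, ATPsynepsilonL and COX4L also have their highest value in that library.

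Whether a paralog and its partner changed by different amounts was tested in 13 pairs on the difference of their log2(FPKM + 1). The change of that difference, Nxt1 minus WT, ran from -1.09 (COX7CL against COX7C) to 0.50 (ATPsynGL against ATPsynG). Exact 2-sided permutation p-values were 0.1 to 0.7, and 0.118 to 0.7 after Benjamini-Hochberg adjustment over the 13 pairs. This exact test cannot go below 0.1 with 3 libraries against 3, so it could call no pair. With the paralogs near 0 reads, these values mostly carry the partner's change.

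The RNase R libraries added no member. Of 597 circular RNAs listed for WT and 467 listed for Nxt1, 0 came from any of the 40 genes.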

How the data were processed

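The authors deposited FPKM for mRNA and pre-mRNA of 17492 genes, a unit named in the labels' file names. Circular RNA lists hold back-splice read counts as deposited, per the file headers, and were used only to look for members. The submitters' processing notes list, without roles, DESeq2, Subread, featureCounts 1.6.2, STAR 2.5.3a and Trimmomatic 0.36. The sources used here give no genome build, so no coordinates are printed.

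Whole reads were recovered from the FPKM (tolerance 0.01) in 15293 of 15293 mRNA and 4543 of 4543 pre-mRNA genes that had reads and finite values, 294 and 88 of them after multiplication by a shared factor. The lengths these imply are out of order between genes: Spearman's rho with the gene's own span was 0.028 as deposited and 0.933 once put in order by sorted ID for mRNA, and 0.014 and 0.859 for pre-mRNA. A fold within a gene does not depend on that length, but the filter and the weight of the pseudocount do. The pre-mRNA table has 1757 genes infinite in at least 1 library and 2878 undefined in all, and they were left out. Library factors, which divide reads where stated, are the authors' own as implied by the FPKM, from 0.594 (Nxt1 replicate 1) to 1.25 (WT replicate 1) for mRNA.

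Where the mean reached 1 FPKM, log2(FPKM + 1) was compared between genotypes with limma 3.58.1 (R 4.3.3; empirical Bayes with an intensity trend), all p-values adjusted by Benjamini-Hochberg over the table. edgeR 4.0.16 on recovered reads and the other alternatives are described at the end. Scripts were tested on simulated data. Genes were matched to symbols for 17371 of 17492 IDs, and overlaps with neighbours come from the RefSeq Release 6 plus ISO1 MT table.

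Members and gene lists were chosen with earlier results of these data known. Values in every library are given, by rule, for the 3 largest and 2 smallest folds in each complex, all paralogs with reads, ATPsynC and members past the pre-mRNA filter. Marker and neighbour genes named were picked from the lists after their values were seen. Intervals from replicates cover only the spread between libraries.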

Additional observations from a re-analysis of the deposited data

How the results depend on the processing

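The sign of the mRNA fold held for 24 of the 26 tested members with equal totals, where 25 of the 26 lay above the median of all genes as in the unaltered analysis. It held for 25 without WT replicate 3, and for all 26 under the pseudocount of 0.1, no filter, edgeR and each other omitted library. Of the 18 called members, 18 were kept with the pseudocount of 0.1, 16 with edgeR, 14 without a filter, 10 with equal totals and 15 of 15 that could be tested with lengths put in order. Members higher numbered 10 with equal totals and from 4 to 24 with 1 library left out. Over all genes those counts were 528 and from 453 to 1439. For complex III the count was 1 with equal totals, 1 of 4 with lengths in order and 0 to 5 with a library left out, for complex IV 3 to 8, and for ATP synthase 4 with equal totals and 1 to 11. With equal totals COX5B turned to -0.01 and UQCR-C1 to -0.03, and UQCR-6.4 ranged from -0.19 to 0.10 over omitted libraries. The causes were not tested.

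The members called lower in pre-mRNA numbered 0 without a filter, with lengths in order (where ATPsynC could not be tested), with pre-mRNA scaled by the mRNA library factors (an alternative chosen after seeing the data) and 0 to 1 with a library left out. The ratio call numbered 0 with lengths in order, 2 with edgeR (adding UQCR-11) and 0 to 1 with a library left out. edgeR called 967 genes higher and 1150 lower for mRNA, and 118 and 109 for pre-mRNA in place of 30 and 23. Uncalled pre-mRNA folds changed sign: UQCR-C1 with pseudocount 0.1 (-0.49), equal totals (-0.01) and omitted libraries (-0.42 to 0.54), UQCR-Q with equal totals (-0.03) and omitted libraries (-0.18 to 0.25), ATPsynF (-1.06 to 0.54), COX7B (-0.43 to 0.27) and UQCR-11 (-0.13 to 0.09). The ratio of UQCR-C1 was -0.03 with equal totals, -0.11 with edgeR and -0.14 to 0.67 over omitted libraries. The pair ATPsynbetaL and ATPsynbeta turned to 0.19 with pseudocount 0.1, and ATPsynGL and ATPsynG to -0.33 with lengths in order, with -0.24 to 1.07 over omitted libraries.

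Replicate numbers gave no clear pairing of the libraries: correlations of same-numbered WT and Nxt1 deviations were -0.081, -0.123 and -0.286 for mRNA and 0.00685, 0.0362 and 0.0038 for pre-mRNA. Between differently numbered libraries the mRNA correlations ran from -0.28 to 0.45. Deviations from a mean of 3 libraries are tied to each other. These values therefore cannot tell whether same-numbered libraries were prepared together. With the replicate block 2 members were higher (0 in complex III, 2 in complex IV, 0 in ATP synthase), 0 lower in pre-mRNA and 0 higher in the ratio, and 367 genes were higher and 218 lower over the mRNA table. Few intronic reads limit all pre-mRNA statements except those on ATPsynC. The ATPsynC statements are limited by RNaseP:RNA, whose reads equal 98.5% to 99.0% of the ATPsynC pre-mRNA reads in number.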
